A study of Mus musculus with 48 samples.

Results

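Adenosine-to-inosine (A-to-I) editing was compared between livers with an editing-dead ADAR1 and livers with wild-type ADAR1. All 6 liver libraries were used, out of 48 libraries from 8 tissues. They came from male C57BL/6 mice 12 weeks old. The 3 controls were Adar1+/+ Ifih1-/- (called WT) and the other 3 were Adar1E861A/E861A Ifih1-/- (called E861A), so both genotypes lacked Ifih1, which encodes the double-stranded RNA sensor MDA5, and neither stands for an unmodified mouse. The label E861A names a single amino acid change that removes the catalytic activity of ADAR1 but leaves the protein in place, and the allele was present in the whole animal, not in hepatocytes alone. Known editing loci were amplified from liver cDNA by microfluidic multiplex PCR and sequenced (mmPCR-seq), and the editing level of a position is the number of reads with G, which is how inosine is read, over all reads of that position. Of 48715 positions in the tables, 4830 were covered in liver, meaning more than 100 reads in at least 2 of 3 livers of both genotypes. Of these, 677 were edited, meaning a level above 1.0% in either genotype when the reads of its covered libraries were pooled, and the results below concern these 677 sites. Covered positions lay in 276 genes or transcripts and in intergenic sequence. The values just inside the limit were 1.00% in WT at Ivd and 1.01% in WT at Atxn3, and just outside it were 0.999% in E861A at Cdk7 and 0.995% in E861A at 2310022A10Rik.

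Editing of RNA is carried out by ADAR1 and by ADAR2, the product of Adarb1, both of which deaminate adenosines in double-stranded RNA. Most mammalian editing falls in paired repeats of 3′ UTRs and introns and is attributed to ADAR1, while several coding sites that exchange an amino acid are known as ADAR2 substrates. ADAR2 is also known to edit an intron of its own pre-mRNA, and is strongly expressed in brain.

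Summed coverage was 7146408 to 8177676 reads per liver library, and 4491 to 5740 positions per library had more than 100 reads. PCR reads are not independent molecules, and limits given here cover counting error only. The labels of these 6 samples give liver, and the paper names liver among its mmPCR-seq tissues in its results and its list of datasets. The tissues named in the growth protocol and in the methods paragraph on mmPCR-seq do not include it. In the data themselves the label could be checked only through reads obtained, which are not expression. Of the hepatocyte markers only Slc7a2 was on the panel, and it had 0 reads in every liver and brain library. Of the 10 neuronal markers, all on the panel, 7 had more than 100 reads at their best-read position in at least 1 liver. Summed over the 10, those reads were 1866, 2836 and 9928 in the WT livers and 544, 3956 and 2744 in the E861A livers. WT 3 held nearly all liver reads of Gria2, Gria4 and Cadps (2382, 890 and 2871), E861A 2 held those of Htr2c (311) and the most of Kcna1 (1433), Gria3 had over 100 reads in 4 livers, and Gabra3 had 521 to 1769 reads in all 6. The part these reads have in the liver levels was not tested. The labels give separate biological replicates, and no label says that equal replicate numbers share an animal or a batch.

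The sites on which the comparison turned are shown as 21 bases of the transcribed strand of mm9 (NCBIM37), 5′ to 3′, with the edited adenosine in capitals. The first group fell in E861A.
uc007vsb.1, chr15:55087117-55087137, plus strand: gcacacctttAaccctagccc
Cds2, chr2:132135606-132135626, plus strand: gtaagcatttAgcaaggtgcc
Car5b, chrX:160415954-160415974, minus strand: ttaaaagagaAggtctcatct
Mad2l1, chr6:66490065-66490085, plus strand: aatgtgtgttAttgttccatt
Agphd1, chr9:54795009-54795029, plus strand: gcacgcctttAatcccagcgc
Ankrd28, chr14:32513839-32513859, minus strand: ttttctttatAaaaatcaaca
The second group held high levels in E861A and did not pass the test in either direction; 3 of them exchange an amino acid.
Cog3, chr14:76119516-76119536, minus strand: cattaaggaaAtttccctgga
Copa, chr1:174022469-174022489, plus strand: cgtttgggatAtttctggtga
Flna, chrX:71472191-71472211, minus strand: tctagtcttcAggtgaggcac
Adarb1, chr10:76786795-76786815, minus strand: ggaggatgttAtaaatgaaaa
Agphd1, chr9:54795029-54795049, plus strand: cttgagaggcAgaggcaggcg

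Editing was lower in E861A livers. Over the 541 edited sites read in all 6 libraries, the mean level was 9.07%, 12.4% and 7.20% in the WT livers and 3.05%, 3.10% and 3.13% in the E861A livers. The genotypes did not overlap, and the E861A livers lay close together while the WT livers spread. WT livers averaged 9.56% ± 2.64 and E861A livers 3.09% ± 0.0361 (SD, n = 3 each), a difference of -6.47 percentage points, with a two-sided exact permutation p of 0.1, the smallest that 3 against 3 allows. Of the 595 sites with editing in WT, 30.9% were still past that limit in the mutant livers (27.3% to 34.8%, the 95% interval of Wilson). The other 411 sites, in 130 genes, were edited in WT only, and their median level was 4.08% in WT and 0.130% in E861A from pooled reads. Sites edited in both genotypes had pooled medians of 9.01% and 4.96%. A further 82 sites were edited in E861A only, with a median of 1.70% there. Of the 541 sites read in all 6 livers, 77 had a WT mean above 20% and 18 an E861A mean above 20%, with 13 in common.

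The sites were tested one by one with limma on log2((level + 0.01)/(1 − level + 0.01)), a log odds scale with an offset. At intermediate levels a change of -1 is close to a halving of the odds of editing. At levels near or below the offset it stands for a larger fall: a Ccni site went from a mean of 1.51% to 0.255% at a change of -0.95. After Benjamini-Hochberg adjustment over all 677 sites, 66 sites (9.75%) fell in E861A and 0 (0%) rose; at an unadjusted p under 0.05 there were 125 lower and 6 higher sites. The 66 sites lay in 34 genes or transcripts, 60 of them in 3′ UTRs, 3 in ncRNA and 3 in intergenic sequence. In every one of them all covered E861A libraries lay below all covered WT libraries. Their median WT mean was 25.1% and their median E861A mean 0.121%, and 58 of the 66 had an E861A mean below 1%. Among all 541 sites read in every liver, 33.1% had every E861A liver below every WT liver and 6 sites (1.11%) had every E861A liver above. The number of sites called moved with single libraries: it was 15, 22 and 29 without E861A 3, E861A 1 and E861A 2, and 39 without WT 2 and 123 without WT 1. On the untransformed level 0 sites passed, and with an offset of 0.05 the count was 19. A quasi-binomial model of the reads gave 39 lower sites, and a fit over all 48 libraries 205 lower and 18 higher.

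**Figure D1:**
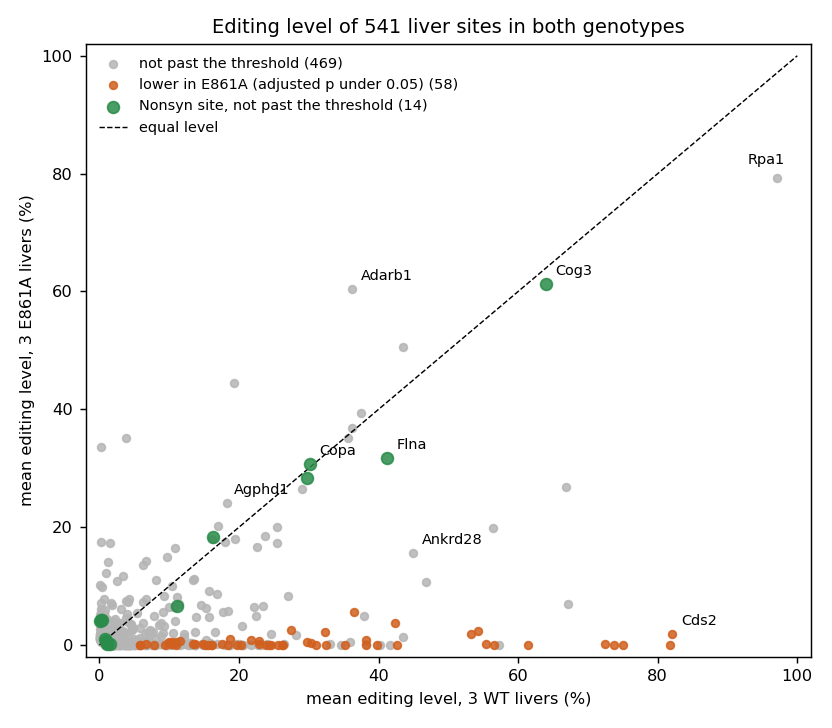
Each point is 1 of 541 edited sites read in all 6 livers, at its mean editing level in 3 WT livers (horizontal axis, percent) and in 3 E861A livers (vertical axis, percent), with the dashed line marking equal levels. The 58 sites that fell lie along the bottom, most of them at E861A means near 0, while Cog3, Copa and Agphd1 lie near the dashed line and Adarb1 lies above it.

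The deepest fall was in the transcript uc007vsb.1, labelled ncRNA, at a base that lies in an annotated UTR of Deptor, which encodes an inhibitor of mTOR. Its level was 90.9%, 88.5% and 66.1% in WT and 0.117%, 0.0938% and 0% in E861A (log2 change -8.88 ± 0.84 SE, adjusted p = 0.00742). In Cds2, which encodes an enzyme that makes CDP-diacylglycerol for phosphoinositide synthesis, a 3′ UTR site was at 79.9%, 89.3% and 77.0% in WT and at 5.52%, 0.168% and 0.0978% in E861A (adjusted p = 0.00908). In Car5b, a mitochondrial carbonic anhydrase, a 3′ UTR site was at 75.5%, 87.7% and 54.2% against 0.0659%, 0.118% and 0.250% (adjusted p = 0.00743). At all 3 sites the lowest WT liver was WT 3, and it still lay far above the highest E861A liver.

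Around 211 of the 677 sites the sequence has other exact copies in the genome that carry G at the site. Of the 466 sites without such a copy 51 fell, or 10.9%, and their mean level was 9.03% ± 2.09 in WT and 3.05% ± 0.207 in E861A (SD, n = 3).

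In Mad2l1, a spindle checkpoint gene, 7 of 16 edited 3′ UTR sites fell. The site with the largest fall was at 43.8%, 89.6% and 36.4% in WT, and no edited read was found among 3127 reads of the E861A livers, which allows a level of up to 0.0959% (adjusted p = 0.0143). A second was at 71.4%, 63.5% and 28.0% in WT and at 0%, 0.0692% and 7.26% in E861A (adjusted p = 0.0319). In the transcript uc008obr.1, over a UTR of the transcription factor gene Tshz2, a site at 99.5%, 48.5% and 36.3% in WT had no edited read among 1549 reads in E861A, which allows up to 0.194% (adjusted p = 0.0364).

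Other noncoding sites fell from intermediate levels. Trim12c, a member of the tripartite motif family, was at 47.1%, 52.7% and 28.0% in WT and at 0%, 0.0408% and 0.0385% in E861A. Gnl3l, a nucleolar GTPase gene, was at 35.5%, 52.9% and 26.3% against 0%, 0.0552% and 0.0616%. Samd8, which encodes a ceramide phosphoethanolamine synthase, was at 49.0%, 32.2% and 24.2% against 0%, 0% and 0.0635%. In these 3 genes the genotypes were separated by more than 20 percentage points, with adjusted p-values of 0.00896, 0.00908 and 0.00908.

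Sites of Bri3bp, Exoc8, an exocyst subunit, and Dnajc1, a co-chaperone of the endoplasmic reticulum, were more variable or less often read. One Bri3bp site was at 27.4%, 65.9% and 21.2% in WT and at 0.164%, 2.17% and 0.0740% in E861A (adjusted p = 0.0264). Another Bri3bp site, read in 2 WT livers at 71.0% and 19.1%, had no edited read among 2911 in E861A, which allows up to 0.103% (adjusted p = 0.0319). Exoc8 held a site at 60.7%, 22.2% and 10.3% in WT against 0%, 0% and 0.188% (adjusted p = 0.0293), and one read in 2 livers per genotype at 53.6% and 27.6% against 0% and 0.444% (adjusted p = 0.0368). The Dnajc1 sites, both read in 2 WT livers, were at 25.7% and 46.1% and at 25.2% and 46.1% in WT and at or below 0.364% in each E861A liver (adjusted p = 0.0180 and 0.0154). Of the 20 sites with the largest falls, 8 kept their call whichever 1 library was left out: those in uc007vsb.1, Cds2, Car5b, Trim12c, Gnl3l and Samd8, the first site of Agphd1 and a site of Ankrd28. The other 12 lost it without at least 1 library.

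Levels were then averaged by kind of sequence. In 3′ UTRs, the largest class with 511 edited sites, the mean level was 9.84%, 13.1% and 7.07% in WT and 2.31%, 2.56% and 2.30% in E861A, which is 10.0% ± 3.04 against 2.39% ± 0.149 (SD, n = 3, 411 sites). Intergenic sites went from 6.73% ± 2.95 to 1.33% ± 0.340 (44 sites) and ncRNA sites from 19.1% ± 4.93 to 7.57% ± 3.31 (19 sites), again with no overlap between genotypes. Sites that change an amino acid (Nonsyn) overlapped between genotypes: 13.3%, 14.1% and 15.2% in WT and 16.1%, 11.8% and 13.2% in E861A, a difference of -0.476 percentage points over 14 sites (two-sided exact permutation p = 0.8). Intronic sites were at 3.78% ± 0.806 in WT and 5.20% ± 1.36 in E861A (48 sites, exact p = 0.2), while the median change over all 59 intronic sites was -0.53 on the log2 scale, with 25 sites edited in WT only and 16 in E861A only. The 3 sites in 5′ UTRs averaged 3.29% ± 1.61 in WT and 12.3% ± 8.26 in E861A, and this mean rested on 1 site of uc007nmn.2 described below. Without E861A 3 the difference of 1.42 percentage points for intronic sites was 0.693 and that of 8.98 for 5′ UTR sites was 4.23; in that library an intronic site of Pigu stood at 99.8%, against 0.792% or less in the other 5 livers. For the 4 classes whose genotypes did not overlap the exact p was 0.1, the smallest possible, and 0.15 after adjustment over the 6 classes tested. Of sites called lower there were 60 of 511 in 3′ UTRs, 3 of 55 in intergenic sequence, 3 of 27 in ncRNA, and 0 of 59 intronic and 0 of 17 Nonsyn sites, beside 9.75% of all sites.

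**Figure D2:**
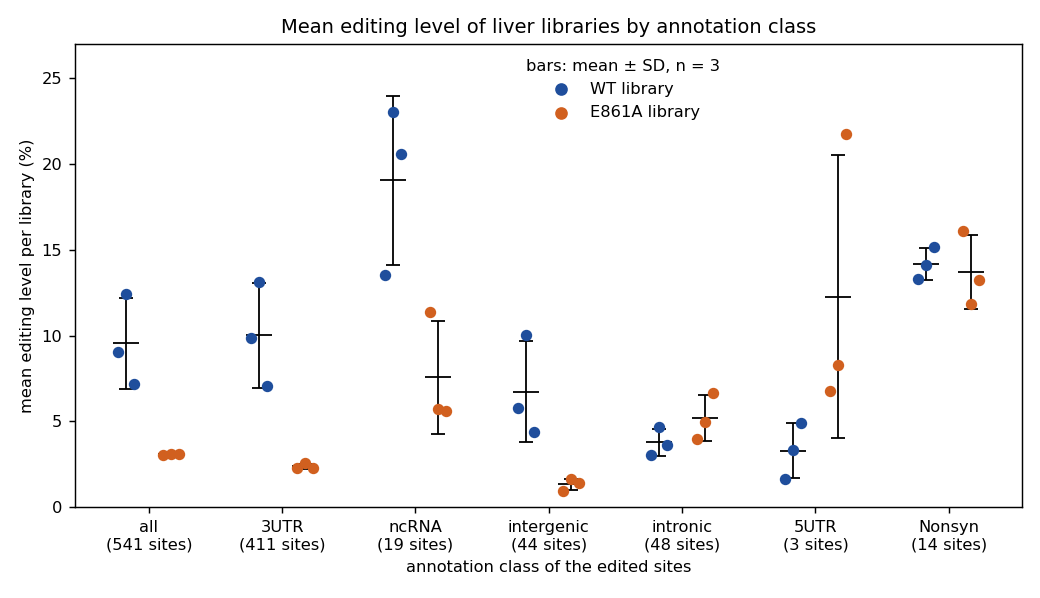
The mean editing level of each liver library (percent) is plotted for all edited sites and for 6 annotation classes, with the number of sites read in all 6 livers under each class; bars give mean ± SD of 3 libraries. The E861A libraries lie below the WT libraries for all sites and for 3UTR, ncRNA and intergenic sites, overlap them for Nonsyn and intronic sites, and lie above them in 5UTR, which holds 3 sites.

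The share of WT-edited sites that kept editing in E861A was 29.5% in 3′ UTRs (137 of 464) and 20.8% in intergenic sequence (10 of 48), against 41.9% in introns (18 of 43), 40% in ncRNA (8 of 20) and 58.3% among Nonsyn sites (7 of 12, Wilson 95% interval 31.9% to 80.7%). The intervals cover counting error over sites only; sites share the same 6 livers and often a cluster, and the classes were not tested against each other.

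The same contrast was made for genes, by averaging the log odds over the edited sites of each gene that were read in all 6 livers. Of 142 genes tested, 27 (19%) were lower in E861A and 0 higher; at an unadjusted p under 0.05 there were 60 genes, 1 of them higher. The number of genes was 8, 12 and 9 without E861A 1, E861A 2 and E861A 3, and 41 without WT 1, and it was 5 on the untransformed level. The 8 genes called whichever library was left out were Agphd1, Car5b, Cds2, Dcaf10, Exoc8, Mad2l1, Trim12c and uc007vsb.1. Of the 27 genes, 7 were called on 1 site, among them Trim12c and Exoc8, and that site of Exoc8 lost its call in the fit of single sites when 1 of 4 libraries was left out. Mad2l1 averaged 22.2%, 25.5% and 11.4% over its 16 sites in WT and 0.249%, 0.118% and 0.534% in E861A (log2 change -3.41 ± 0.56 SE, adjusted p = 0.00613). Gnl3l, with 7 sites, averaged 30.4%, 29.1% and 7.77% against 0.0455%, 0.120% and 0.125% (adjusted p = 0.0164, not called when any 1 E861A library or WT 2 was left out). In the remaining genes with several sites the fall was of the same kind but smaller, as in Cdk7, the kinase that activates other cyclin-dependent kinases, at 9.26%, 6.67% and 4.44% over 10 sites against 2.61%, 0.843% and 0.151% (adjusted p = 0.0349, not called in 5 of the 6 fits without a library).

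**Figure D3:**
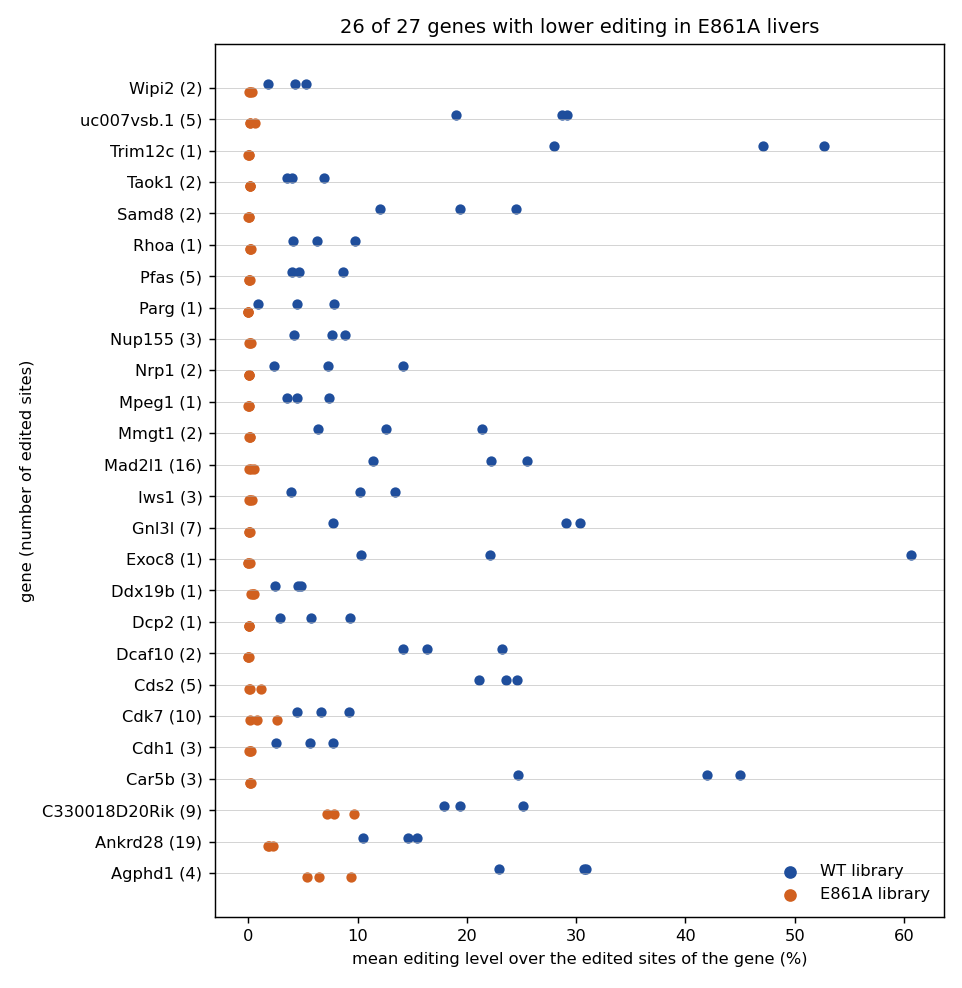
For 26 of the 27 genes that fell, the mean editing level over its edited sites (percent, horizontal axis) is shown in each of 3 WT and 3 E861A livers, with the number of sites in brackets. No E861A liver reaches the lowest WT liver in any of these genes, and only Agphd1 and C330018D20Rik keep E861A means above 5% in all 3 livers.

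Several of these genes serve basic cell functions: Rhoa, a small GTPase of the cytoskeleton, Dcp2, the mRNA decapping enzyme, Cdh1, which encodes E-cadherin, Nup155, a nuclear pore protein, Parg, which removes poly(ADP-ribose), Wipi2, an autophagy protein, and Pfas, a purine synthesis enzyme. Their levels were between 0.858% and 9.76% in single WT livers and between 0% and 0.371% in single E861A livers. All were lower with adjusted p-values of 0.0425 or less, and all lost the call without at least 1 E861A library.

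The strongest coding sites that exchange an amino acid remained edited in E861A livers. Cog3 encodes a subunit of the oligomeric Golgi complex, and its isoleucine-to-valine site was edited at 65.0%, 60.7% and 66.4% in WT and at 62.8%, 60.8% and 60.4% in E861A (log2 change -0.17 ± 0.86 SE, adjusted p = 0.908). Copa, the alpha subunit of the COPI vesicle coat, was edited at its isoleucine-to-valine site at 28.7%, 31.6% and 30.3% in WT and at 32.7%, 28.6% and 30.7% in E861A (adjusted p = 0.974). At both sites the ranges of the genotypes overlapped and 5024 or more reads stood behind each value.

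The glutamine-to-arginine site of Flna, a filamin that crosslinks actin, was at 39.4%, 48.9% and 35.4% in WT and at 33.9%, 33.1% and 28.2% in E861A. Every E861A liver lay below every WT liver there, but the change of -0.58 ± 0.75 (SE) on the log2 scale did not pass the test (adjusted p = 0.607). In the fit of genes, where Flna is this 1 site, the same change had an SE of 0.22 and did not pass either (limma, adjusted p = 0.0991). A synonymous site of Cog3, 1 base from the isoleucine site, was at 8.95%, 3.56% and 6.05% in WT and at 7.07%, 9.25% and 5.81% in E861A.

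Neuronal recoding sites were read in liver where their amplified loci gave enough reads. Gabra3, a subunit of the GABA-A receptor, was at 6.47%, 20.1% and 22.0% in WT and at 13.8%, 15.1% and 26.0% in E861A at its isoleucine-to-methionine site (adjusted p = 0.818). The lysine-to-glutamate site of Cyfip2, a WAVE complex component, was at 5.24%, 0.122% and 28.2% in WT and at 8.50%, 1.97% and 9.26% in E861A (adjusted p = 0.965); the high value is in WT 3, the library with reads of Gria2 and Cadps. An arginine-to-glycine site of Gria3, a glutamate receptor subunit, was read in 2 livers per genotype, at 0.291% and 38.8% in WT and at 46.6% and 82.1% in E861A (adjusted p = 0.343). Both genotypes held detectable editing at these loci. At Gabra3 and Cyfip2 the genotypes overlapped, whereas at Gria3 both E861A livers lay above both WT livers, by 44.8 percentage points on average, without passing the test.

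The remaining Nonsyn sites were near the limit of 1.0%. In WT only, Ccni was at 1.39%, 2.49% and 0.640% against 0.104%, 0.275% and 0.386% in E861A, with no overlap but no call (adjusted p = 0.383). Sites of Blcap and Tmem63b were also edited in WT only, with means of 1.13%, 2.09% and 1.14% against 0.123%, 0.0866% and 0.492% in E861A, and Gtf2a2 was at 0.871% against 0.740%. In E861A only, 3 neighbouring sites of Zfp362 were at 11.6%, 11.9% and 11.7% in E861A 1 and below 1% in the other 5 livers, so their means of about 4% rest on that library; a Neil1 site, with an E861A mean of 0.919%, was also edited there only.

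The intron of Adarb1, the gene of ADAR2, also remained edited. Its main site was edited at 41.8%, 39.8% and 27.1% in WT and at 54.9%, 57.3% and 69.1% in E861A. All 3 E861A livers lay above all 3 WT livers, by 24.2 percentage points on average (36.2% ± 7.99 against 60.5% ± 7.61, SD, n = 3), but the site did not pass limma (log2 change 1.43 ± 0.83 SE, adjusted p = 0.383), and 1.11% of sites had this order. The other 6 edited sites of the intron, within 44 bases in all, ranged widely in both genotypes; the site 8 bases away was at 0.500%, 0.468% and 8.99% in WT and at 23.0%, 0.256% and 11.7% in E861A. Over the 7 sites the gene mean was 11.3%, 7.01% and 9.70% in WT and 12.2%, 19.2% and 13.8% in E861A (adjusted p = 0.449). In kidney the main site was at 40.6% in WT and 16.8% in E861A, and in brain at 77.0% and 82.4% (means of 3 libraries).

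**Figure D4:**
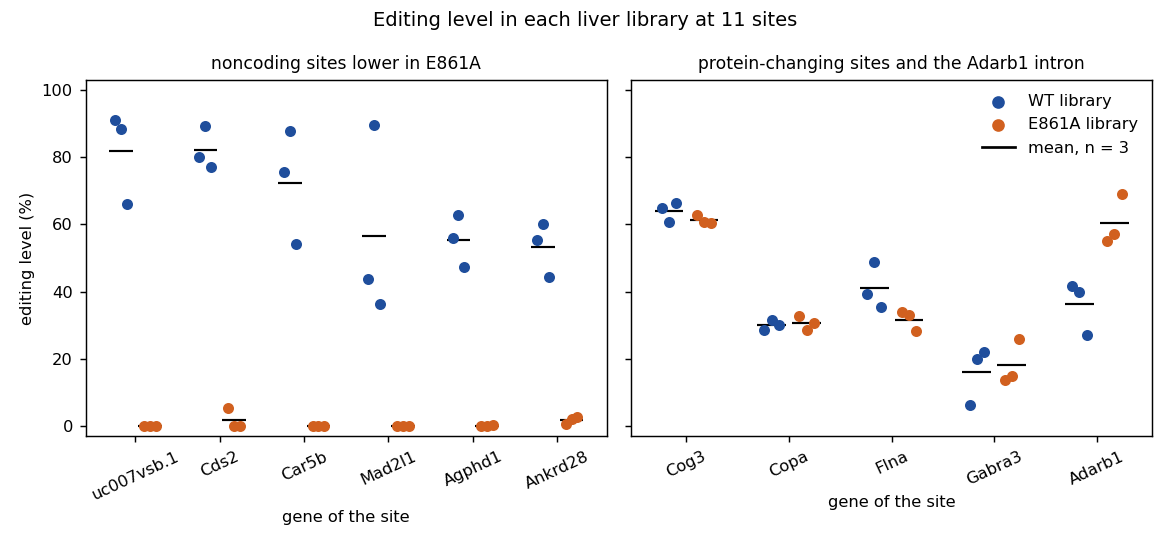
The editing level (percent) in each of 3 WT and 3 E861A livers is shown at 6 noncoding sites that fell (left) and at 4 protein-changing sites and the main Adarb1 site (right), with a line at each mean. On the left every E861A point is at or below 5.52%, whereas on the right the E861A points lie among the WT points, except that they lie below them for Flna and above them for Adarb1.

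Within 1 transcript, neighbouring adenosines could differ. In the 3′ UTR of Agphd1, a hydroxylysine kinase gene, a site fell from 56.0%, 62.7% and 47.3% in WT to 0%, 0% and 0.434% in E861A (adjusted p = 0.00742), and the next base from 29.7%, 28.5% and 18.4% to 0%, 0.103% and 0.0892% (adjusted p = 0.00908). The site 20 bases downstream was at 37.8%, 25.5% and 23.9% in WT and at 20.9%, 24.6% and 34.0% in E861A (adjusted p = 0.888). These 3 sites were read in the same amplified stretch, with 436 or more reads in each library.

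Malt1, a signalling protease gene, held the only rise close to the threshold. A 3′ UTR site was at 0.207%, 0.168% and 2.63% in WT and at 9.56%, 17.8% and 9.55% in E861A (log2 change 3.07 ± 0.78 SE, adjusted p = 0.0580), while the site 14 bases upstream was at 30.6%, 32.6% and 15.7% in WT and at 0%, 0.190% and 0% in E861A (adjusted p = 0.00942). In C330018D20Rik, directly adjacent bases differed: 1 fell from a mean of 32.3% ± 9.75 to 2.26% ± 2.59 (adjusted p = 0.0319) and the base next to it was at 43.4% ± 14.7 in WT and 50.5% ± 5.62 in E861A (SD, n = 3, adjusted p = 0.756).

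Ankrd28, which encodes a regulatory ankyrin repeat subunit of protein phosphatase 6, had 19 edited 3′ UTR sites, 6 of which fell and 13 of which were edited in WT only. Its gene mean went from 14.6%, 15.5% and 10.5% to 2.27%, 1.81% and 1.89% (adjusted p = 0.0187, not called when any 1 E861A library was left out). The site with the largest fall was at 55.3%, 60.1% and 44.4% in WT and at 0.738%, 2.13% and 2.85% in E861A (adjusted p = 0.00942). A second, at the far end of the cluster, was at 49.1%, 52.2% and 25.7% against 4.91%, 3.89% and 2.42% (adjusted p = 0.0293). The adenosine next to the first was at 49.4%, 47.9% and 37.5% in WT and still at 18.6%, 12.5% and 15.8% in E861A, below WT in every liver but not past the test (adjusted p = 0.159).

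Rpa1, the large subunit of the single-strand DNA binding protein RPA, also had 19 edited 3′ UTR sites, and 0 of them fell. A site at 99.9%, 94.2% and 97.0% in WT was at 60.4%, 80.6% and 96.7% in E861A (adjusted p = 0.423). In a cluster of 8 sites at the other end, a site at 28.3%, 28.6% and 19.4% in WT was at 26.1%, 17.9% and 16.3% in E861A, and the site 5 bases from it was at 17.1%, 19.5% and 17.4% against 21.5%, 15.9% and 15.1%. The gene mean was 9.11%, 13.4% and 11.4% in WT and 9.67%, 8.86% and 9.97% in E861A, with overlapping ranges (adjusted p = 0.567).

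**Figure D5:**
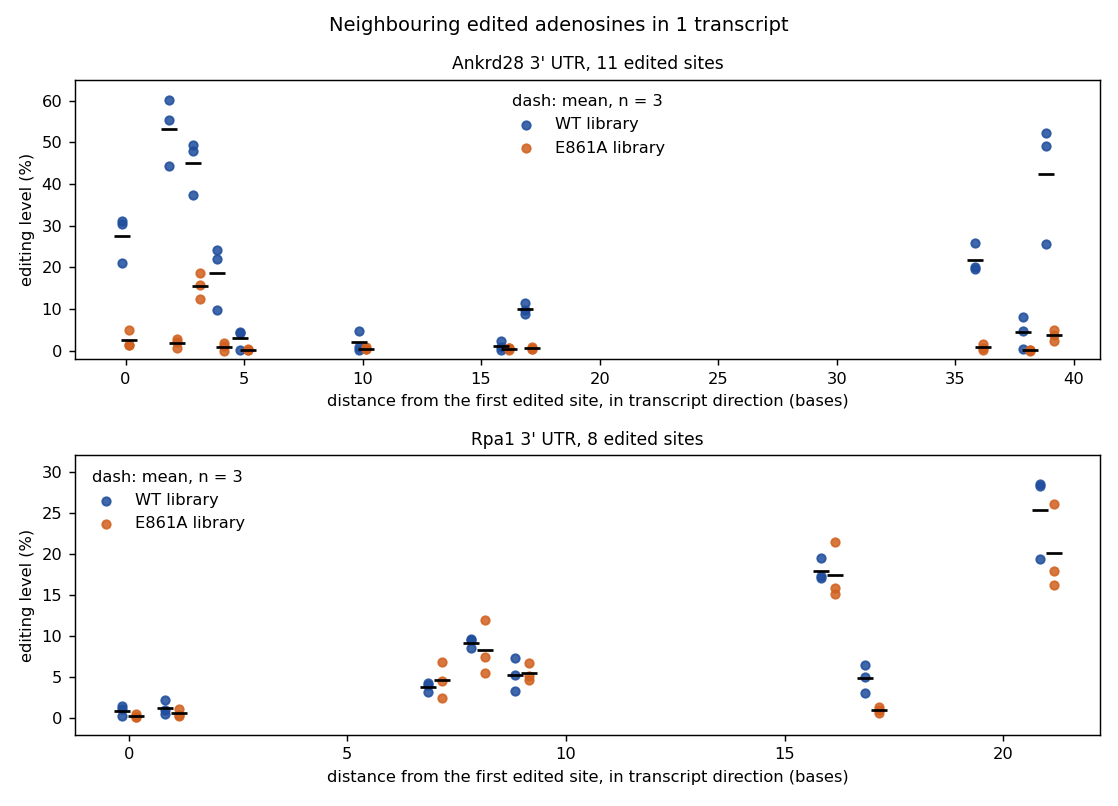
Editing levels (percent) in each of 3 WT and 3 E861A livers are plotted against the distance in bases from the first edited site for clusters of 11 sites in Ankrd28 and 8 sites in Rpa1, with a dash at each mean. In Ankrd28 the E861A points lie at 4.91% or below except at 1 site with 12.5% to 18.6%, whereas in Rpa1 they lie among the WT points at the strongest sites.

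High levels in E861A were not confined to coding sites. Of sites read in all 6 livers, 42 had an E861A mean above 10%, and 29 of these also had a WT mean above 10%. The intronic site of Fnbp1 was at 0%, 28.4% and 29.4% in WT and at 70.2%, 17.1% and 45.9% in E861A. A site of uc012aji.1, in an exon of Tulp4, was at 99.7%, 99.9% and 68.2% in WT and at 0.181% and 95.6% in the 2 E861A livers that covered it. A site of Ecm2 was at 99.9%, 100% and 88.2% in WT and at 90.1% and 22.0% in 2 E861A livers. An intronic Flna site stood at 99.7% and 1.23% in 2 WT livers and at 99.1% and 0% in 2 E861A livers, and an intronic S100pbp site at 72.3% and 0.219% against 36.1% and 43.7%. In all of these the difference was smaller than the spread within a genotype (adjusted p of 0.314 or more).

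Besides Malt1, 5 sites had a higher level in E861A at an unadjusted p under 0.05, and none passed the adjustment. In uc007nmn.2, in an exon of the ubiquitin ligase gene G2e3, a 5′ UTR site was at 0.342%, 0.200% and 10.8% in WT and at 20.1%, 23.0% and 62.5% in E861A (adjusted p = 0.101), with 42288 other genomic copies of its 21 bases that carry G. Rwdd2b was at 0.0402%, 0.105% and 1.83% against 12.4%, 5.13% and 5.98% (adjusted p = 0.0980), and 4933407H18Rik at 0%, 0% and 1.84% against 4.21%, 9.64% and 2.18% (adjusted p = 0.241). Adjacent bases of uc008obr.1, 24 and 25 bases from the site of that transcript that fell, were at 0%, 76.5% and 20.5% and at 0.255%, 75.6% and 20.1% in WT, and at 99.2% and 92.9% and at 99.2% and 92.2% in the 2 E861A livers that covered them (adjusted p = 0.213 and 0.207). All 5 had every covered E861A liver above every WT liver.

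Edited sites stood close to each other: 67.5% had another edited site within 10 bases, and the median distance to the nearest was 5 bases. The bases beside the adenosine also differed from those of the unedited adenosines. The base before it was T in 37.5% and G in 10.2% of the 677 edited sites, against 16.9% and 25.1% of the 4153 covered positions that were not edited. T preceded 37.0% of sites edited in WT only, 46.2% of those edited in both genotypes and 43.9% of the 66 that fell. It preceded 20.7% of the 82 sites edited in E861A only, where C was the commonest base (35.4%) and G preceded 18.3%, shares closer to those of the unedited positions. The base after it was G in 43.9% of edited and 33.5% of unedited positions. G followed 46.3% of the sites edited in E861A only, a share closer to that of the edited sites. It followed 34.8% of the 66 that fell, where A was the commonest base (37.9%). These shares describe the sites of this panel and were not tested.

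Groups of genes were counted against the 9.75% of all edited sites that fell and the median log2 change of -1.02 over all of them. The lists were chosen with earlier results of these data known, so these shares are no test of the groups. Of 13 edited sites in 8 genes of the broad recoding list, 0 fell (median log2 change -0.17), and of 4 sites in 3 genes of the neuronal recoding list, 0 fell (median 0.20). Of 32 sites in 6 genes of the secretory route and membrane lipids, which are Bri3bp, Cds2, Cog3, Copa, Exoc8 and Mgat4a, 8 fell (25%, median -1.54). They were 2 each in Bri3bp, Cds2, Exoc8 and Mgat4a, and 0 in Cog3 and Copa. Of 44 sites in 5 genes of the list for RNA and translation, 1 fell (2.27%, median -0.73). Of the 42 with WT editing, 22 kept it in E861A, 13 of them in Rpa1. Rpa1, which encodes a DNA binding protein, gave 19 of the 44 sites, and 0 of these fell. Of the innate immunity list, Trim12c and Ifnar1, a subunit of the type I interferon receptor, had 1 edited site each and that of Trim12c fell. Of the liver metabolism and transport list, only Agphd1 was covered, and 2 of its 4 sites fell.

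Liver was set beside kidney and brain by the difference of the genotype effects over 12 libraries. Against kidney, 1 of 666 sites (0.15%) differed after adjustment, and 32 at an unadjusted p under 0.05. That site, in Rragd, a GTPase of amino acid signalling, was listed at 0% in both WT livers that covered it and at 0%, 0% and 0.693% in E861A livers, while in kidney it was at 52.3%, 59.5% and 31.4% in WT and at 0%, 0.388% and 0.106% in E861A (limma interaction, adjusted p = 0.0117); without WT 2 of liver 0 sites passed, without WT 1 or without E861A 3 there were 2, and without WT 3 there were 10. Against brain, 12 of 852 sites (1.41%) differed and 90 at an unadjusted p under 0.05; in 9 the genotype effect was more negative in liver. With any 1 of the liver E861A libraries left out 0 sites passed, and there were 19 without WT 1 and 7 without WT 2.

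Among the sites that differed from brain, adjacent bases in the 3′ UTR of Slc35e2 were at 13.6%, 15.7% and 23.3% and at 13.8%, 5.96% and 13.3% in WT liver and at or below 0.517% in E861A liver, while in brain they were at or below 0.459% in both genotypes (adjusted p = 0.0153 and 0.0266). A site of Mgat4a, an enzyme of N-glycan branching, was at 30.7% and 22.3% in 2 WT livers and at or below 0.672% in E861A liver, against 0.290% or less in the 5 brain libraries that covered it (adjusted p = 0.0266). The Bri3bp site that was at 71.0% and 19.1% in WT liver and 0% in E861A liver was at 0%, 0.0969% and 5.69% in WT brain and at 16.3%, 9.04% and 9.01% in E861A brain (adjusted p = 0.0266). A Gnl3l site, by contrast, was below 1% in every liver and in brain was at 0.179% or less in WT and at 12.9%, 18.5% and 11.0% in E861A (adjusted p = 0.0153).

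What remained in E861A livers lay between what remained in kidney and in brain, the only tissues compared. Over 536 sites edited in liver or kidney and read in all 6 E861A libraries, the mean level was 2.61%, 2.47% and 2.63% in E861A liver and 1.29% to 1.52% in E861A kidney (2.57% ± 0.0898 against 1.44% ± 0.127, SD, n = 3). Over 751 sites edited in liver or brain and read in all 6 E861A libraries it was 1.80%, 1.79% and 1.83% in liver and 7.77%, 6.74% and 6.84% in brain (1.81% ± 0.0232 against 7.12% ± 0.566). Neither pair of tissues overlapped, and both comparisons gave a two-sided exact permutation p of 0.1, the smallest possible, and 0.1 after adjustment over the 2. Of the liver sites edited in both genotypes, 150 were covered in kidney and 91 of them, or 60.7%, were edited in both genotypes there too, which is 72.8% of the 125 such kidney sites that were covered in liver. In brain 128 were covered and 114, or 89.1%, were edited in both genotypes, which is 29.0% of the 393 such brain sites covered in liver. The 125 kidney sites were among 3924 sites covered in both liver and kidney, and the 393 brain sites among 3309 covered in both liver and brain. Such sites were thus more frequent in brain, and the shares of 60.7% and 89.1% were not tested against each other.

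The coding sites were also read in kidney and brain. Cog3 was at 60.7% in WT and 57.4% in E861A kidney, close to liver, and at 27.4% and 25.5% in brain (means of 3 libraries). Copa was at 9.92% and 9.01% in kidney and at 6.34% and 7.88% in brain, below the 30.2% ± 1.45 and 30.7% ± 2.04 (SD, n = 3) of liver. Flna was at 33.1% and 30.6% in kidney and at 34.9% and 20.7% in brain. Cyfip2 and Tmem63b were at 80.2% and 60.3% in WT brain, against 11.2% ± 14.9 and 1.14% ± 0.896 in WT liver. These levels were not tested between tissues.

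Single animals differed strongly at single sites. The median range over 3 livers was 5.89 percentage points in WT and 0.517 in E861A, and at sites with a mean above 10% in that genotype it was 25.7 and 18.3 points. Divided by the mean of the site, the median range was 1.27 in WT and 0.849 in E861A. In WT 105 of the 541 sites ranged over more than 20 points, and in E861A 28. At 4 sites in WT and 2 in E861A, 1 liver was above 90% and another below 10%. WT 2 held the highest WT level at 247 of the 472 sites with a WT mean above 1%, against 124 for WT 1 and 101 for WT 3. In E861A the highest level was spread evenly, at 70, 71 and 68 of 209 such sites.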

How the data were processed

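Each of the 48 tables that the authors deposited lists 48715 positions. Per the file headers, its columns hold the count of reads at a position, how many of them were edited, and their quotient as a fraction, which was checked against both counts; levels were then computed anew from the counts, without pooling of replicates by the authors. The submitters' processing notes name STAR, SAMtools and mm9, with no version or role, and all 48715 positions carry an adenosine on the given strand of NCBIM37. Gene names and classes are those of the tables, with GENCODE features added by position. The members and gene lists were chosen with earlier results of these data known.

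Covered sites had over 100 reads in 2 or 3 libraries of each genotype, and edited ones a pooled level above 1.0% in either. Levels of covered libraries were put on the scale log2((level + 0.01)/(1 − level + 0.01)) and fitted by genotype in R 4.3.3 with lmFit and eBayes (trend) of limma 3.58.1. P-values of all edited sites were adjusted together (Benjamini-Hochberg, threshold 0.05). A library with 100 reads or fewer at a site was missing there, and n was then 2. Genes were averaged over sites read in all 6 libraries. Tissues were compared by an interaction contrast over 12 libraries. The fit was tested on simulated data. For library means an exact permutation test, two-sided, over 20 relabelings was used. Python 3.11.15, pandas 2.3.3, numpy 2.4.6, scipy 1.17.1 and matplotlib 3.10.9 were used. Copies of a site are exact matches of its 21 bases, with G at the site, on both strands.

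Named sites were the 20 with the largest fall among those called whose genotypes did not overlap and the 12 with the highest E861A mean among those edited in both, with up to 2 per gene; up to 6 rises at an unadjusted p under 0.05; all Nonsyn sites and sites of the recoding lists; genes with 5 or more edited sites, as gene means; up to 5 sites per comparison with another tissue; and 2 sites on each side of the limit. Sites described beside their neighbours in Agphd1, Malt1, C330018D20Rik, Ankrd28, Adarb1 and Rpa1, and the Pigu site, were chosen after their values were seen. Alternatives changed the coverage minimum, the limit, the offset, the model and the libraries used. The 2 tables of the whole series were not used. A few counts are printed only as a share of their total, a wording settled on once the values were known. Results at some sites and genes that the naming rule picks are not reported here.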

Additional observations from a re-analysis of the deposited data

Results flagged for a closer look

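At 6 sites the genotype effect in liver differed from that in another tissue by the interaction test of limma over 12 libraries. The differences of log2 change, liver minus the other tissue, were 6.56 for the Rragd site against kidney, and, against brain, -4.37 for a Gnl3l site, -4.28 and -3.60 for the adjacent Slc35e2 sites, -4.90 for Mgat4a and -9.05 for Bri3bp. Their adjusted p-values were 0.0117 for Rragd, 0.0153 for Gnl3l and the first Slc35e2 site, and 0.0266 for the others. The remaining 7 sites that differed from brain lie in Pfas, Cds2, Gnl3l, Golga2, uc007ugi.2 and intergenic sequence.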

How the results depend on the processing

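The number of sites lower in E861A (66) was 19 with an offset of 0.05, 39 in a quasi-binomial model of the reads, 205 in a fit over all 48 libraries, and 0 on the untransformed level; leaving out 1 library gave 15 to 123. The number of sites higher (0) was 2 with a coverage minimum of 500, 1 with all 3 replicates covered, 2 with a limit of 0.05, 1 without the trend, 18 in the fit over 48 libraries, 5 by the study's criterion, and 0 to 3 with 1 library left out. Genes lower (27) were 5 on the untransformed level, 47 in the fit over 48 libraries and 8 to 41 with 1 library left out; genes higher (0) were 2 with a limit of 0.05 and 7 over 48 libraries. The replicate numbers share no stated animal and correlated at 0.000527, -0.0148 and 0.0512; with replicate number as a block, 0 sites were lower, 43 genes lower and 2 genes higher, and 0 sites differed from kidney and 0 from brain. The share of WT-edited sites kept in E861A was 25% with a limit of 0.05 and 25.1% to 32.8% with 1 library left out. The difference in mean level (-6.47 percentage points) was -12.4 with a limit of 0.05, -2.54 as the median over sites, and between -5.60 and -8.04 in its other alternatives. For Nonsyn sites it was -0.476 and changed sign without WT 3 (0.00893) and without E861A 2 (0.463), with a range of -1.66 to 0.463. Against kidney (1 site) it was 0 on the untransformed level and 0 to 10 with 1 liver library left out; against brain (12) it was 5 with an offset of 0.05, 0 on the untransformed level and 0 to 19. Of the 66 sites called, 14 were called whichever 1 library was left out. The causes were not tested.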

Other observations

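Editing of 9 of the 66 sites that fell was not detected in any covered E861A liver. Besides those of Mad2l1, Bri3bp, uc008obr.1 and Dnajc1, they include a site of Igf2, the insulin-like growth factor 2 gene, with no edited read among 3389, which allows a level of up to 0.0885%, a site of Cdk7 with none among 5160, which allows up to 0.0581%, and a site of Ttbk2, a tau tubulin kinase gene, with none among 815 in 2 livers, which allows up to 0.368%. In Zkscan3, a zinc finger gene, all 8 edited intronic sites were edited in WT only, and the gene mean was 3.49%, 2.12% and 2.24% in WT and 0.286%, 0.737% and 0.143% in E861A (limma, adjusted p = 0.0603). In Dclre1c, which encodes the nuclease Artemis, 12 of 19 edited 3′ UTR sites were edited in both genotypes and 0 fell, with a gene mean of 3.08%, 7.73% and 4.18% in WT and 3.28%, 5.30% and 4.85% in E861A.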
